A study of Mus musculus with 14 samples.

Results

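The genes described here are 10 markers of mural cells, the pericytes and vascular smooth muscle cells that wrap brain vessels: Pdgfrb, Notch3, Rgs5, Kcnj8, Abcc9, Vtn, Anpep, Acta2, Myh11 and Tagln. They were found by gene symbol among the 46904 genes of the expression table, and all 10 passed the filter on low values (above 0 in at least 2 libraries), as did 46102 genes in all. The study compared mice lacking cortistatin (Cort-/-, transgenic deficient animals on a C57BL/6J background), a neuropeptide, with Cort+/+ mice after transient middle cerebral artery occlusion (MCAO), a filament model of stroke. Male mice of 12 weeks had the left artery occluded for 20 min, and RNA was taken 48 h later from whole hemispheres, with the ischemic side called MCAO and the contralateral side CL. The 14 libraries analysed here were 3 Cort+/+ CL, 3 Cort+/+ MCAO (numbered 2 to 4), 3 Cort-/- CL and 5 Cort-/- MCAO, described in the methods as independent biological replicates. The methods give 5 MCAO replicates, of which 3 of the Cort+/+ group were analysed here. They also state that, where replicates separated strongly, those that grouped clearly were kept, which could narrow the spread within groups, and for which groups this was done is not given in the sources used here. Every CL hemisphere came from an operated brain, so all 4 groups share surgery, anaesthesia and analgesia, and no sham-operated group was analysed here.

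Pericytes sit on capillaries within the vessel's basement membrane and are kept there by platelet-derived growth factor signalling from endothelial cells to the receptor PDGFRB. Smooth muscle cells ring arterioles and arteries and set vessel width with a contractile apparatus of actin, myosin and their partners. In the brain both cell types help to control blood flow and the blood-brain barrier, and pericytes are known to constrict or die after ischemia.

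Depth ranged from 25991114 to 43034551 reads on genes per library, from whole reads recovered from the deposited RPKM values (reads per kilobase of gene, scaled to library size). Cort itself lay between 2.61 and 5.68 RPKM in the 6 Cort+/+ libraries and between 0 and 0.136 RPKM (0 to 4 reads) in the 8 Cort-/- libraries, which checks the genotype labels. The neuronal markers summed to 1660 to 2273 RPKM per library, as a hemisphere of brain would give, and the striatal neuron markers summed to 210 to 255 RPKM in CL and 90.9 to 193 RPKM in MCAO libraries. RNA came from whole tissue, so a difference in a marker's level cannot tell fewer or more cells from less or more RNA per cell.

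RPKM values are per length, so levels can be set side by side between genes. In Cort+/+ CL hemispheres Vtn had the highest level, 30.8 ± 2.08 RPKM (mean ± SD, n = 3), followed by Rgs5 at 17.4 ± 2.19, Pdgfrb at 4.62 ± 0.458 and Acta2 at 2.52 ± 0.246. Tagln at 2.17 ± 0.434, Notch3 at 1.93 ± 0.201, Kcnj8 at 1.52 ± 0.404, Abcc9 at 1.43 ± 0.262, Anpep at 1.03 ± 0.171 and Myh11 at 0.846 ± 0.0728 RPKM followed in that order. Vtn, Rgs5, Pdgfrb and Acta2 were separated from one another in every library of the group. Below them the neighbours in this order overlapped between libraries, except that every Abcc9 value lay above every Anpep value. The order differed in MCAO hemispheres, where Tagln reached 5.22 ± 1.26 RPKM in Cort+/+ (n = 3) and 6.71 ± 0.952 RPKM in Cort-/- mice (n = 5), beside Pdgfrb at 5.16 ± 0.335 and 5.43 ± 0.729, and the values of these 2 genes overlapped. Notch3 also stood above Acta2 there, at 2.45 ± 0.281 beside 2.37 ± 0.254 RPKM in Cort+/+ and 2.51 ± 0.0879 beside 2.37 ± 0.428 RPKM in Cort-/- mice, again with overlapping values.

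**Figure D1:**
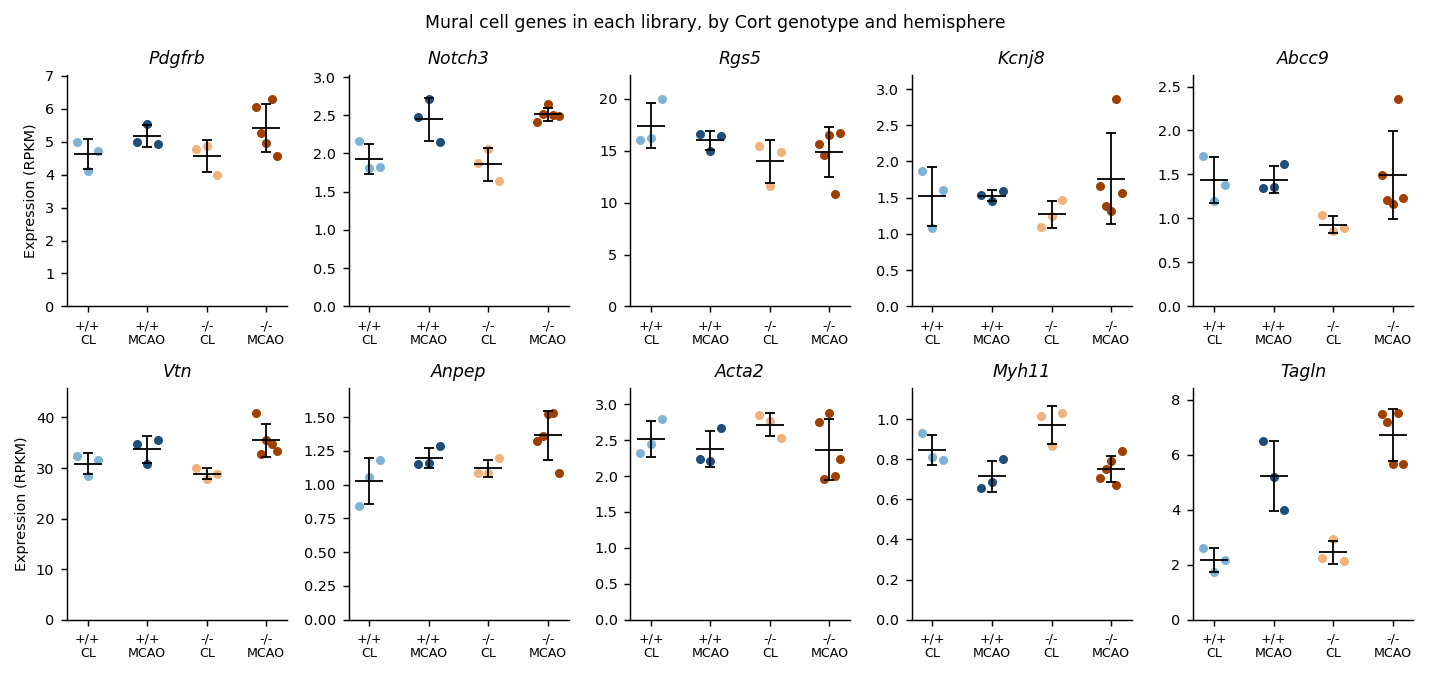
RPKM of the 10 mural cell genes (vertical axes start at 0 and differ between panels) in each library, grouped by Cort genotype and hemisphere. Points are libraries, horizontal bars are means and whiskers are SD. Tagln is higher in all 8 MCAO libraries than in all 6 CL libraries, while Kcnj8 and Abcc9 each have 1 Cort-/- MCAO library far above the other 4.

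The comparison of ischemic with contralateral hemispheres asks how these genes respond to stroke in each genotype. In Cort-/- mice Tagln and Notch3 rose, by 2.68-fold and 1.34-fold, and no member fell past the threshold. The 2 called members of 10 stand beside 1.72% of all genes tested in that comparison (1.34% higher). Calls were more frequent among the 15063 genes averaging 1 RPKM or more, as every member but Myh11 did: 459 were higher and 155 lower. Among Cort+/+ animals 0 members passed, beside 0.0108% of all genes, so almost nothing in the table could be called there by limma. At an unadjusted p under 0.05, Cort+/+ mice had 2 members up and 0 down, beside 4.88% and 2.99% of all genes. The Cort-/- comparison had 5 up and 1 down at that level, beside 6.66% and 6.05% of all genes. Averaged over both genotypes, the same 2 genes, Tagln and Notch3, were called, beside 3.43% of all genes (2.52% higher). Of the 15063 genes, 837 were called higher and 376 lower in this average. The median difference of the 10 members was 0.08 in Cort+/+ and 0.27 in Cort-/- mice on the log2(RPKM + 0.1) scale, on which every fold change here is given. For the 15063 genes averaging 1 RPKM or more the medians were -0.02 and -0.03. In Cort+/+ mice the MCAO and CL libraries did not overlap for 1 member, Tagln, which was higher (5.73% of all genes did not overlap and were higher). The Cort-/- hemispheres did not overlap for 4 members, which were higher, Abcc9, Vtn, Notch3 and Tagln (4.85% of all genes), nor for Myh11, which was lower (4.27% of all genes).

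**Figure D2:**
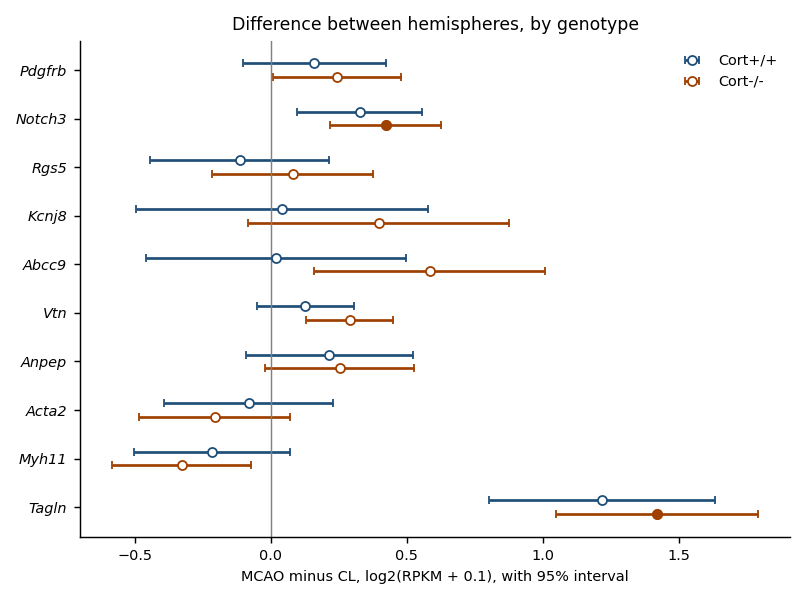
Difference between MCAO and CL hemispheres (horizontal axis, log2(RPKM + 0.1)) for each member in Cort+/+ and Cort-/- mice, with 95% intervals from limma. Filled points passed an adjusted p of 0.05. Tagln lies apart from the other 9 genes in both genotypes, and Myh11 and Acta2 lie below 0.

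Among the contractile genes, Tagln encodes transgelin (SM22), an actin-binding protein of smooth muscle that other mesenchymal cells also make. In Cort+/+ mice its CL libraries had 2.61, 1.74 and 2.17 RPKM and its MCAO libraries 6.50, 5.18 and 3.99 RPKM. The Cort-/- CL libraries had 2.25, 2.92 and 2.15 RPKM and the Cort-/- MCAO libraries 7.48, 7.19, 5.67, 7.52 and 5.67 RPKM. All 8 ischemic hemispheres were above all 6 contralateral ones, on 96 to 155 reads per CL library and 197 to 519 per MCAO library. The log2 fold change was 1.42 (SE 0.17, limma adjusted p = 0.00596) in Cort-/- and 1.22 (SE 0.19, adjusted p = 0.0817) in Cort+/+ mice, where the fold was 2.33 with a 95% interval of 1.74 to 3.10. Without Cort+/+ MCAO replicate 4, the lowest of its group, the Cort+/+ difference was 1.39 and passed (limma adjusted p = 0.0108). Averaged over both genotypes it was 1.32 (SE 0.13, 2.50-fold, limma adjusted p = 5.6e-04). With replicate number as a block the Cort-/- call was lost (1.52, limma adjusted p = 0.0702). With that block within genotype the Cort-/- call (1.44, limma adjusted p = 0.328) and the averaged call (1.48, limma adjusted p = 0.13) were lost. Genes of the expression data on the opposite strand overlap 4 members: Pcsk7 and Gm48529 overlap Tagln, Stambpl1 overlaps Acta2, Gm17276 overlaps Notch3 and 5330439B14Rik overlaps Abcc9. The library kit keeps strand, but the strand setting of the counting was not given in the sources used here, so reads shared with these genes cannot be told apart. On the same strand, Gm44974 overlaps Anpep, where no strand setting separates shared reads. Pcsk7 itself had log2 differences between hemispheres of -0.10 in Cort+/+ and -0.04 in Cort-/- mice. Values of Gm48529 and of the genes that overlap the other members are not given here.

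The other contractile members did not move this way. Acta2 encodes smooth muscle alpha-actin, the main actin of arteriolar muscle. Its CL values were 2.32, 2.44 and 2.79 RPKM in Cort+/+ and 2.85, 2.76 and 2.53 RPKM in Cort-/- mice, and its MCAO values were 2.24, 2.21 and 2.67 RPKM and 2.75, 1.96, 2.88, 2.00 and 2.24 RPKM. The hemispheres overlapped in both genotypes, with log2 differences of -0.08 (95% interval -0.39 to 0.23) and -0.21 (-0.48 to 0.07). Myh11 encodes the myosin heavy chain of smooth muscle, the member most restricted to that cell type. It had 0.930, 0.809 and 0.799 RPKM in Cort+/+ CL and 0.656, 0.686 and 0.802 RPKM in Cort+/+ MCAO libraries. Cort-/- libraries had 1.02, 0.864 and 1.03 RPKM in CL and 0.709, 0.752, 0.790, 0.674 and 0.841 RPKM in MCAO libraries. All 5 Cort-/- MCAO values were below the 3 CL values, by 0.33 on the log2 scale at the mean, but the difference missed the threshold (limma adjusted p = 0.224, unadjusted p = 0.0157). In Cort+/+ mice the difference was -0.22 (limma adjusted p = 0.801).

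Ratios within a library do not depend on its scaling. Tagln to Acta2 lay between 0.712 and 1.13 in the 6 CL libraries and between 1.50 and 3.76 in the 8 MCAO libraries, with no overlap. Tagln to Myh11 lay between 2.08 and 3.38 in CL and between 4.98 and 11.2 in MCAO libraries, again with no overlap. Acta2 to Myh11 lay between 2.45 and 3.49 in CL and between 2.60 and 3.88 in MCAO libraries, and the hemispheres overlapped. Tagln therefore changed unequally with the other contractile members, while no such separation was seen between Acta2 and Myh11.

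**Figure D3:**
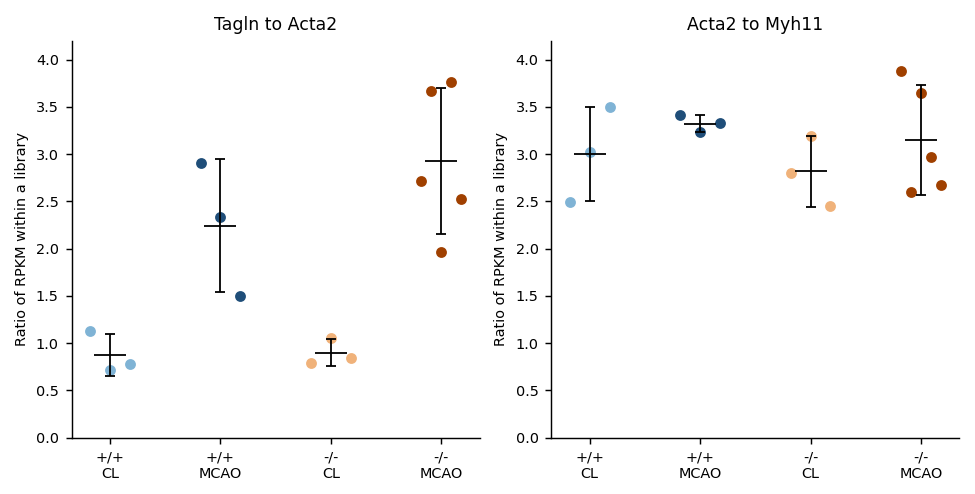
Ratio of RPKM within each library (vertical axis, no unit) for Tagln to Acta2 and for Acta2 to Myh11, by genotype and hemisphere. Points are libraries, horizontal bars means and whiskers SD. The Tagln to Acta2 ratio is 1.50 or more in every MCAO library and 1.13 or less in every CL library, and the Acta2 to Myh11 ratios overlap.

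Markers of other cell types moved with Tagln. The 8 fibroblast markers summed to 27.7 to 32.8 RPKM in the 6 CL libraries and to 33.6 to 47.2 RPKM in the 8 MCAO libraries. Of these 2 rose in Cort-/- mice, where 1.34% of all genes were called higher, the matrix proteoglycan Dcn by 0.67 on the log2 scale (limma adjusted p = 0.00964) and Islr by 0.26 (limma adjusted p = 0.0411). The 8 microglia and macrophage markers summed to 59.3 to 68.7 RPKM in CL and 83.5 to 153 RPKM in MCAO libraries, and 5 of the 8 rose in Cort-/- mice, beside the same 1.34% of all genes, among them Cd68 (log2 fold change 1.97), Itgam (1.26), Aif1 (1.16) and Cx3cr1 (0.70). No marker of either list was at 0 in any library, and the part of these cells in the Tagln difference was not tested.

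Notch3 encodes the Notch receptor of smooth muscle cells and pericytes, whose mutation causes an inherited small vessel disease. Its CL libraries had 2.16, 1.80 and 1.82 RPKM in Cort+/+ and 1.87, 2.06 and 1.64 RPKM in Cort-/- mice. Its MCAO libraries had 2.48, 2.71 and 2.15 RPKM in Cort+/+ and 2.41, 2.51, 2.65, 2.50 and 2.49 RPKM in Cort-/- mice. The Cort-/- hemispheres did not overlap, and in Cort+/+ mice MCAO replicate 4 lay just under CL replicate 1. The log2 fold change was 0.42 (SE 0.09, limma adjusted p = 0.0441) in Cort-/- mice and 0.33 (SE 0.11, limma adjusted p = 0.379, unadjusted p = 0.00885) in Cort+/+ mice. Averaged over both genotypes it was 0.37 (SE 0.07, 1.30-fold, limma adjusted p = 0.0118). The Cort-/- call was lost in 11 of the 14 fits that left out 1 library, with log2 fold changes of 0.34 to 0.50, and after TPM scaling (0.46, limma adjusted p = 0.0587). It was also lost with replicate number as a block (0.46, limma adjusted p = 0.199) and with that block within genotype (0.43, limma adjusted p = 0.392). The averaged call was lost with both blocks (0.42 and 0.46, limma adjusted p = 0.0884 and 0.163). 

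Pdgfrb, the receptor that recruits pericytes to vessels, had 5.01, 4.11 and 4.73 RPKM in Cort+/+ CL and 4.9996, 5.54 and 4.94 RPKM in Cort+/+ MCAO libraries. In Cort-/- mice it had 4.79, 4.89 and 3.997 RPKM in CL and 6.07, 5.26, 4.97, 6.29 and 4.57 RPKM in MCAO libraries. The hemispheres overlapped in both genotypes, and the log2 differences of 0.16 (95% interval -0.10 to 0.42) and 0.24 (0.01 to 0.48) missed the threshold (limma adjusted p = 0.887 and 0.368). Rgs5, a regulator of G protein signalling that is among the most abundant pericyte transcripts, had 16.1, 16.3 and 20.0 RPKM in Cort+/+ CL and 16.6, 15.0 and 16.5 RPKM in Cort+/+ MCAO libraries. Cort-/- libraries had 15.4, 11.6 and 14.9 RPKM in CL and 15.7, 14.6, 16.5, 10.8 and 16.7 RPKM in MCAO libraries, with MCAO replicate 4 the lowest of all 14. Its log2 differences between hemispheres were -0.12 (95% interval -0.45 to 0.22) in Cort+/+ and 0.08 (-0.22 to 0.38) in Cort-/- mice.

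Vtn encodes vitronectin, a matrix and serum glycoprotein that pericytes are the main brain cells to make. It had 32.4, 28.5 and 31.7 RPKM in Cort+/+ CL and 34.8, 30.7 and 35.6 RPKM in Cort+/+ MCAO libraries. Cort-/- libraries had 29.9, 27.9 and 28.9 RPKM in CL and 40.9, 32.7, 35.5, 34.7 and 33.4 RPKM in MCAO libraries. All 5 ischemic Cort-/- hemispheres were above the 3 contralateral ones, and the log2 fold change of 0.29 (SE 0.07) missed the threshold (limma adjusted p = 0.0745). Vtn passed in Cort-/- mice when the test was limited to means of 0.5 RPKM or more (limma adjusted p = 0.0334), after TPM scaling (0.0473) and with voom on the recovered reads (0.0222). Averaged over genotypes its log2 fold change was 0.21 (limma adjusted p = 0.063), and it passed under the same 3 alternatives (0.0278, 0.0308 and 0.0160), after quantile normalization (0.0396) and without Cort+/+ MCAO replicate 3 (0.0494). Anpep encodes aminopeptidase N (CD13), a surface enzyme of pericytes that other cell types also carry. Its levels ran from 0.842 to 1.20 RPKM in the CL and from 1.09 to 1.53 RPKM in the MCAO libraries, the groups overlapped in both genotypes, and the log2 differences were 0.22 (limma adjusted p = 0.844) and 0.25 (0.449) in the order Cort+/+, Cort-/-.

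Kcnj8 and Abcc9 encode the pore (Kir6.1) and the regulatory subunit (SUR2) of the vascular ATP-sensitive potassium channel, which relaxes mural cells when energy falls. The genes are neighbours on 1 strand: in GRCm39 Kcnj8 lies at chr6:142510563-142517830 and Abcc9 at chr6:142533588-142648571, both on the minus strand, 15757 bp apart. Windows around their starts (250 bases before to 50 after, from RefSeq on GRCm38.p6) are shown because these neighbours encode 1 channel, with that of Notch3, which rose, for comparison. Capitals mark TGGGAA, the core letters read by RBPJ, the DNA-binding partner of Notch. Kcnj8 is chr6:142571565-142571864, Abcc9 chr6:142702225-142702524 and Notch3 chr17:32166841-32167140, all on the minus strand, written 5′ to 3′.
Kcnj8: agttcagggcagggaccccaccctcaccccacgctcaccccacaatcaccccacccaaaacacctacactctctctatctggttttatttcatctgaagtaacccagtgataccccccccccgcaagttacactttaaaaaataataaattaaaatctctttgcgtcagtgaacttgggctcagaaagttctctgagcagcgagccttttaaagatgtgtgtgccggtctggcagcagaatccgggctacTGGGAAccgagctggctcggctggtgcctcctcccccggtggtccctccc
Abcc9: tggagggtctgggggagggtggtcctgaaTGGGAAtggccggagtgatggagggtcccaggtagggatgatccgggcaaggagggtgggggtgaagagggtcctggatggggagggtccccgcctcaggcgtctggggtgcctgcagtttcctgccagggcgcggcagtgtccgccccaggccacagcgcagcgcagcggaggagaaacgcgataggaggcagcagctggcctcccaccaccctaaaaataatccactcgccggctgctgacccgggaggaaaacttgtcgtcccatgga
Notch3: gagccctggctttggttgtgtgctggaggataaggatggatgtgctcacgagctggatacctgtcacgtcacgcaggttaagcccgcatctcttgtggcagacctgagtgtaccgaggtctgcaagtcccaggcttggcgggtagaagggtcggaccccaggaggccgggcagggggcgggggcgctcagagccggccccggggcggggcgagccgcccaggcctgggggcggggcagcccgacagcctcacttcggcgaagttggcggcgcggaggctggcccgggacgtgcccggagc
TGGGAA was found at base 1 after the start in Kcnj8 and 221 bases before it in Abcc9, and its letters are not in the Notch3 window on either strand. Windows were found for 7 members, and 4 of these held it on either strand (Kcnj8, Abcc9, Vtn and Acta2), beside 25.6% of 32851 promoters of the same length. The CArG box of smooth muscle genes was also searched, with no mismatch allowed, and was in 0 of the 7 and in 1.63% of all promoters, and forms with a mismatch were not searched. Pdgfrb, Tagln and Myh11 had no entry.

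Abcc9 had 1.71, 1.20 and 1.38 RPKM in Cort+/+ CL, 1.35, 1.35 and 1.62 in Cort+/+ MCAO, 1.04, 0.862 and 0.889 in Cort-/- CL and 1.49, 1.21, 1.17, 2.35 and 1.23 RPKM in Cort-/- MCAO libraries. The 3 Cort-/- CL values were the lowest of all 14, and Cort-/- MCAO replicate 4 was the highest. Kcnj8 had 1.87, 1.08 and 1.61 RPKM in Cort+/+ CL, 1.54, 1.45 and 1.60 in Cort+/+ MCAO, 1.09, 1.25 and 1.47 in Cort-/- CL and 1.67, 1.39, 1.32, 2.86 and 1.57 RPKM in Cort-/- MCAO libraries. Here too Cort-/- MCAO replicate 4 was the highest library, while the groups overlapped. The Cort-/- log2 difference between hemispheres was 0.58 (SE 0.20, limma adjusted p = 0.188, unadjusted p = 0.0111) for Abcc9 and 0.40 (SE 0.22, limma adjusted p = 0.516) for Kcnj8. Without replicate 4 these differences were 0.42 and 0.22. The Cort+/+ differences were 0.02 (95% interval -0.46 to 0.50) and 0.04 (-0.50 to 0.58).

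Across the 14 libraries log2(RPKM + 0.1) of the 2 channel genes correlated with a Pearson r of 0.83 and a Spearman rho of 0.85, given as a description, since the libraries share groups. Without Cort-/- MCAO replicate 4 they were 0.67 and 0.82 over 13 libraries, and without the 2 libraries farthest from the median of Kcnj8 they were 0.76 and 0.85 over 12. Deviations from the group means correlated at 0.86, and at 0.61 without Cort-/- MCAO replicate 4. Within the Cort-/- CL group the library lowest in Kcnj8 was the highest in Abcc9. Cort-/- MCAO replicate 4 also had the highest summed endothelial markers (94.3 RPKM) and red blood cell markers (186 RPKM) of its group, and the lowest Rgs5. The endothelial sum did not overlap between Cort-/- hemispheres, at 60.1 to 67.6 RPKM in CL and 73.2 to 94.3 RPKM in MCAO libraries. In Cort+/+ mice it overlapped, at 68.6 to 85.9 and 76.2 to 86.7 RPKM. The part of vessel content in these values was not tested.

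**Figure D4:**
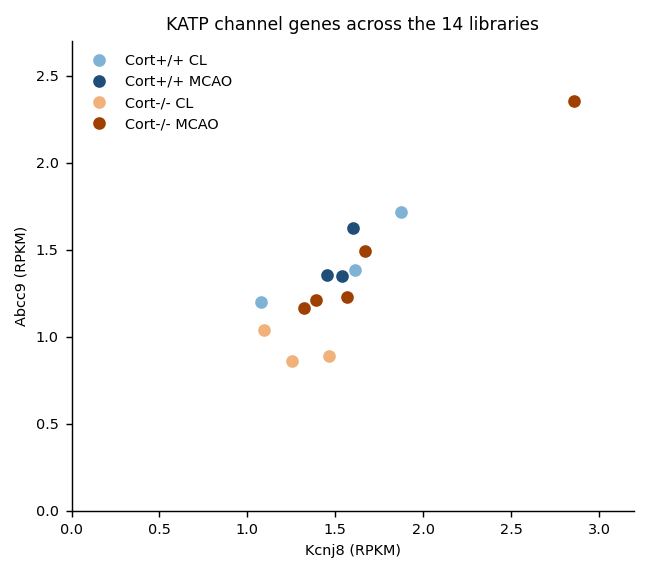
Kcnj8 (horizontal axis, RPKM) against Abcc9 (vertical axis, RPKM) in each of the 14 libraries, coloured by genotype and hemisphere. The 3 Cort-/- CL libraries lie lowest on the Abcc9 axis and Cort-/- MCAO replicate 4 lies at the top right, at 2.86 and 2.35 RPKM.

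The comparison of genotypes asks whether lack of cortistatin alters these genes in either hemisphere. In CL hemispheres 0 of the 10 members passed, beside 0.0152% of all genes. At an unadjusted p under 0.05, 1 member (Abcc9) was lower and 0 were higher, beside 1.97% and 1.94% of all genes. Abcc9 was 0.56 lower on the log2 scale in Cort-/- mice (SE 0.22, 95% interval of the fold 0.486 to 0.941, limma adjusted p = 1, unadjusted p = 0.0239). Rgs5 was 0.32 lower (SE 0.15, limma adjusted p = 1, unadjusted p = 0.057). For both genes the 3 Cort-/- CL libraries lay below the 3 Cort+/+ CL libraries, which was so for 2.35% of all genes. Endothelial markers summed to 60.1 to 67.6 RPKM in Cort-/- CL and 68.6 to 85.9 RPKM in Cort+/+ CL libraries. Of the 12 markers 0 passed, and 3 were lower at an unadjusted p under 0.05. The 68.6 RPKM library, Cort+/+ CL replicate 3, had the largest RPKM total over all genes, 397098. Relative to that total its endothelial sum was below that of Cort-/- CL replicate 2 (67.6 of 364020 RPKM), so this separation depends on scaling. Red blood cell markers summed to 91.0 to 141 RPKM (mean 120) in Cort-/- CL and 125 to 330 RPKM (mean 234) in Cort+/+ CL libraries, with overlap. The 14 other pericyte genes also summed lower, to 24.2 to 26.9 RPKM in Cort-/- CL and 27.9 to 30.9 RPKM in Cort+/+ CL libraries, with no overlap. Of these 14 genes 0 passed, and 1 (Mcam, 5.43 against 7.09 RPKM) was lower at an unadjusted p under 0.05. The log2 difference was above 0 for 2 of them, Cspg4 (3.23 RPKM in Cort-/- and 2.95 in Cort+/+ CL) and Foxc1 (0.670 and 0.620 RPKM). The other mural lists overlapped between genotypes in CL. The 16 other contractile genes summed to 61.6 to 63.9 RPKM in Cort-/- and 63.7 to 72.6 RPKM in Cort+/+ libraries. The wider lists used by the study summed to 866 to 885 and 865 to 916 RPKM for 49 pericyte genes, and to 672 to 709 and 682 to 760 RPKM for 50 smooth muscle genes. The part of vessel cell content in the Abcc9 and Rgs5 values was not tested. For the other 8 members the 95% intervals of the fold lay between 0.593 and 1.50.

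In MCAO hemispheres 0 members passed between genotypes, beside 0.0174% of all genes, 0 had an unadjusted p under 0.05 (3.82% of all genes did), and no member's groups were free of overlap (0.861% of all genes did not overlap and were higher, 1.56% lower). The nearest was Tagln, 1.29-fold higher in Cort-/- mice with a 95% interval of 0.999 to 1.67 (limma adjusted p = 1, unadjusted p = 0.0507). An interaction contrast set the effect of MCAO in Cort-/- mice against that in Cort+/+ mice, and 0 members passed, beside 0.00217% of all genes. None had an unadjusted p under 0.05, a level reached by 3.31% of all genes. For Tagln the response differed by 0.20 on the log2 scale (95% interval -0.35 to 0.76) and for Notch3 by 0.10 (-0.21 to 0.40). The largest estimate was that of Abcc9, 0.57 (95% interval -0.07 to 1.20, unadjusted p = 0.0786), and both genotypes' values for it are given above. These intervals are wide, and a response that passed in Cort-/- but not in Cort+/+ mice is not shown to differ between them.

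Other genes of the same cells and pathways were read against the 1.34% of all genes called higher in Cort-/- mice. Genes averaging 1 RPKM or more were called higher more often, 459 of 15063. Of 14 other pericyte genes 0 passed in either genotype, and the median difference was 0.01 in Cort+/+ and 0.17 in Cort-/- mice. Their most abundant members were Mcam, an adhesion molecule, at 7.09 ± 1.04, 6.98 ± 0.897, 5.43 ± 0.965 and 6.89 ± 0.911 RPKM in Cort+/+ CL, Cort+/+ MCAO, Cort-/- CL and Cort-/- MCAO libraries, and Slc6a20a, a transporter, at 3.81 ± 1.06, 3.63 ± 0.604, 3.60 ± 0.520 and 4.06 ± 0.949 RPKM. Of 16 other contractile genes 1 rose in Cort-/- mice, where the median was 0.10, and 0 rose in Cort+/+ mice, where it was -0.04. The riser was Des, desmin, the intermediate filament protein of muscle and pericytes, named after its values were seen since its mean was 0.569 RPKM. It had 0.351 ± 0.0476 RPKM in Cort-/- CL and 0.746 ± 0.102 in Cort-/- MCAO libraries (log2 fold change 0.91, SE 0.16, limma adjusted p = 0.0172), and in Cort+/+ mice the log2 difference was 0.40 (limma adjusted p = 0.611). The most abundant of this list, the tropomyosin Tpm1 and the myosin light chain Myl9, had log2 differences of 0.04 and 0.04 in Cort-/- mice.

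Among 17 ligands, receptors and targets of PDGF and Notch signalling 0 passed in either genotype, and the medians were 0.02 in Cort+/+ and 0.00 in Cort-/- mice. Averaged over genotypes, where 2.52% of all genes were called higher, 1 of the 17 rose, Notch1, a Notch receptor of endothelial and neural cells, by 0.32 (SE 0.08, limma adjusted p = 0.0434). Wider marker lists used by the study, which hold several of the members, gave 3 of 49 pericyte genes higher in Cort-/- mice, Dcn (0.67), Gpx8 (0.58) and the chemokine Ccl11, beside the same 1.34% of all genes, with a median of 0.24. Ccl11 is named after its values were seen, since its mean was 0.283 RPKM and its Cort-/- CL libraries held 0 to 1 reads. Its smooth muscle list gave 3 of 50 higher, Tagln, Des and the actin crosslinker Flna (log2 fold change 0.48, limma adjusted p = 0.0282), again beside 1.34% of all genes and with a median of 0.09. In Cort+/+ mice 0 genes of either list passed. Of 12 endothelial markers 2 were higher in MCAO than in CL hemispheres of Cort-/- mice, Kdr (0.75) and Cdh5 (0.55), beside 1.34% of all genes. The median was 0.40, beside 0.10 in Cort+/+ mice. Kdr averaged 2.31 RPKM in Cort+/+ CL, 2.25 in Cort+/+ MCAO, 1.18 in Cort-/- CL and 2.05 in Cort-/- MCAO libraries. Its Cort-/- CL mean was thus the lowest, and its Cort-/- MCAO mean stayed below both Cort+/+ means. For Cdh5 the means were 3.32, 3.97, 3.09 and 4.58 RPKM in the same order.

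Genes whose log2(RPKM + 0.1) followed a member most closely over the 14 libraries were sought among 15063 genes averaging 1 RPKM or more. Tagln was most like Plau, Tgm1 and Mki67 (Pearson r of 0.97 each), and Notch3 was most like AU020206, Gpx7 and Msr1 (0.92 each). For Abcc9 they were Gata2 (0.86), Cd93 (0.85) and Rpl9-ps6 (0.84), and for Kcnj8 Hsd11b1 (0.89), Scara3 (0.87) and Epb41l4aos (0.86). Vtn was nearest to Phlda3 (0.91), Pdgfrb to Zwilch (0.94), Rgs5 to Plekhb1 (0.90), Anpep to Srm (0.85), Acta2 to Polr2m (0.83) and Myh11 to Usp30 (0.90). Among the members themselves the closest pair was Notch3 and Tagln (0.90), which fell to 0.56 for deviations from group means, and Tagln and Myh11 ran opposite (-0.74). The libraries share groups and hemispheres, so these values only describe likeness.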

How the data were processed

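Values are from 14 RNA-seq libraries of brain hemispheres (48 h after a 20 min occlusion, age 12 weeks). The authors prepared stranded mRNA libraries, processed the reads with reanalyzerGSE v3.0.0 on GRCm39 with GENCODE M28, and deposited RPKM per gene without pooling replicates. Gene lengths and library scaling were not given in the sources used here. Library sizes and gene lengths that turn RPKM into whole reads were searched for, and 100% of 495656 values above 0 were whole within 0.001. Where the annotated length did not give whole reads, the shortest length that did was kept. Genes with few values above 0 could therefore hardly fail, and this share is not a full check of the recovered reads. Counting error is limited by 25991114 to 43034551 reads per library.

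Genes above 0 in at least 2 libraries (46102 of 46904) were fitted as log2(RPKM + 0.1) with limma 3.58.1 in R 4.3.3: 4 groups in 1 model, moderated variance with trend, and Benjamini-Hochberg adjusted p under 0.05 over all genes, for 6 contrasts (hemispheres within each genotype and averaged, genotypes within each hemisphere, interaction). The fit was tested on simulated data. Positions are from GENCODE M39 and promoters from RefSeq. The 10 members and all lists were chosen with earlier results of these data known. Named genes are all members, and from each list up to 4 of the largest called changes with a mean of at least 1 RPKM, or the 2 most abundant where none passed. Exceptions are Des and Ccl11, with lower means, and genes named for overlap, likeness or the direction of single genes in a list. Alternatives were other pseudocounts, filters, scalings, weights, voom on the recovered reads, replicate blocks and leaving out each library. The libraries share no stated batch.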

Additional observations from a re-analysis of the deposited data

Results flagged for a closer look

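In the Cort-/- MCAO group (n = 5), replicate 4 stood far from the other libraries for both subunits of the vascular potassium channel. Kcnj8 had 2.86 RPKM there, beside 1.67 RPKM in the next library, a gap of 0.774 of the group's whole range. Abcc9 had 2.35 RPKM, beside 1.49 RPKM in the next library, a gap of 0.725 of the range. In all 23 sets of values were examined this way, the members and the sums of the other lists, all in these same Cort-/- MCAO libraries. The smaller groups were not examined. Chance marks about 1 in 20 such sets, and these sets are not independent, since they share libraries and in part genes. No response to MCAO differed between genotypes by the interaction test or by opposite directions in every library.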

How the results depend on the processing

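Of 1520 member differences under the alternatives, 1443 kept direction and side of the threshold, 12 newly passed, 22 no longer passed and 43 changed sign, all of the last with adjusted p of 0.87 or more. Called members numbered 0 in Cort+/+ and 2 in Cort-/- mice and 2 averaged over genotypes. In Cort+/+ mice 1 (Tagln) was called with a pseudocount of 0.01, a mean of at least 0.5 RPKM or voom, and 0 to 1 with a library left out. In Cort-/- mice 1 (Tagln) was called with a pseudocount of 1, quantile normalization or only the groups compared, and 1 to 2 with a library left out. With TPM the count stayed at 2, as Notch3 was lost (adjusted p = 0.0587) and Vtn entered (0.0473). With a replicate block 0 members were called in Cort-/- mice (Tagln 1.52, adjusted p = 0.0702) and 1 averaged over genotypes, where Notch3 was lost (0.42, 0.0884). With the block within genotype the counts were 0 (Tagln 1.44, 0.328) and 0 (Notch3 0.46, 0.163, and Tagln 1.48, 0.13). In that fit only replicate numbers found in both hemispheres inform the difference, so it rests on fewer libraries. The replicate numbers are not shown to pair the samples: libraries of the same number correlated between hemispheres at -0.239 to 0.316 in deviations from group means. Libraries of different numbers within a genotype correlated at -0.316 to 0.404. The methods separate each brain into its hemispheres, so CL and MCAO libraries may share mice under other numbers, which no fit here took into account.

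Signs changed as follows (log2 differences). Between hemispheres in Cort+/+ mice, Kcnj8 gave -0.036 under quantile normalization, -0.109 with the replicate block and -0.173 to 0.198 with a library left out, and Abcc9 gave -0.0542, -0.0936 and -0.0938 to 0.148. With a library left out Rgs5 gave -0.0456 to 0.189 in Cort-/- mice and -0.0806 to 0.0367 averaged over genotypes, and for the latter 0.0105 with TPM, 0.0239 with voom and 0.0400 with the replicate block. Between genotypes in CL, Pdgfrb gave 0.0399 and Notch3 0.00443 with TPM, and -0.098 to 0.0711 and -0.126 to 0.0311 with a library left out. In MCAO, Abcc9 gave -0.00168 with a pseudocount of 0.01 and -0.0314 with library weights, and Acta2 gave 0.0393 with TPM. With a library left out there, Kcnj8 gave -0.0425 to 0.222, Abcc9 -0.168 to 0.0835, Notch3 -0.0432 to 0.117 and Acta2 -0.0888 to 0.0669. For the interaction with the block within genotype, Pdgfrb gave -0.00105, Notch3 -0.0649, Acta2 0.105 and Tagln -0.0924, and with a library left out Pdgfrb gave -0.0067 to 0.162 and Anpep -0.0596 to 0.161. The cause of these changes was not tested. Read counts limit precision most for Kcnj8 (89 to 304 reads per library).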
